A study of Mus musculus with 10 samples.

Results

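This comparison set retinal microglia of diabetic mice 8 weeks after streptozotocin (8wk STZ, 4 mice) against those of mice 4 weeks after it (4wk STZ, 3 mice). Streptozotocin (STZ) kills pancreatic beta cells, the source of insulin, and leaves the animal with lasting high blood glucose. The members are 7 of the 10 libraries of the series and the 18957 of 55487 genes that passed a filter on low counts. The remaining 3 libraries came from littermates (Control), and serve here to give each gene's earlier change, 4wk STZ against Control. Every mouse, controls included, was Cx3cr1GFP/+: green fluorescent protein (GFP) replaces 1 copy of the fractalkine receptor gene, so all groups carry a single working copy. GFP in these mice also marks other cells of the myeloid lineage, and cells were sorted as GFP-positive and DAPI-negative. Each library holds both retinas of 1 animal after perfusion and papain digestion. The labels give neither animal ages nor library batches, so time since STZ and animal age cannot be told apart here.

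Microglia are the resident macrophages of the retina. They survey neurons and vessels through fine processes, clear debris, and respond to injury or raised glucose with altered cytokine output, metabolism and motility. Diabetes in rodents injures retinal vessels, neurons and photoreceptors over weeks to months, so that the surroundings of these cells also change between the 2 times. In bulk RNA of this kind, fewer cells of a type and less RNA per cell cannot be told apart.

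The libraries held 33266838 to 49051036 counted reads at 4 weeks and 46143178 to 62903489 at 8 weeks. Levels below are counts per 1000000 reads (CPM) after scaling between libraries. They are listed in replicate order, 1 to 3 at 4 weeks and 1 to 4 at 8 weeks, and spreads are SD over those animals. The microglial markers were high in every library: Cx3cr1, the receptor that drives the reporter, stood at 3760.4, 3421 and 3539 CPM at 4 weeks and 3109.6, 3431, 2971 and 2834 CPM at 8 weeks, and the purinergic receptor gene P2ry12 at 6040.4, 5396 and 6876 CPM at 4 weeks and 5316, 5489, 4644 and 4231 CPM at 8 weeks. Within-group correlations of log2 CPM ran from 0.907 to 0.919 at 4 weeks and from 0.943 to 0.95 at 8 weeks. The library 4wk STZ 3 was the smallest and stood apart on the second principal component, which held 14.3% of the variance. Control 3 also stood apart. Listed genes of rods, the cells that crowd the digested retina, took 0.752 to 1.09% of reads at 4 weeks and 0.494 to 0.622% at 8 weeks. Without Gnb1, a G protein gene found in many cell types, these shares were 0.471 to 0.677% and 0.295 to 0.411%. Markers of border macrophages took 0.0365 to 0.0707% and 0.0243 to 0.107%.

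Between 4 and 8 weeks, 75 genes rose and 99 fell at an adjusted p below 0.05 (edgeR's quasi-likelihood test with Benjamini-Hochberg adjustment over all 18957 genes, here the meaning of "called"). That is 0.918% of the genes tested, 0.396% higher and 0.522% lower, and 2589 genes (13.7%) had an unadjusted p below 0.05. A change of 2-fold or more was reached by 36 of those that rose and 33 of those that fell. The median log2 fold change over all genes tested was -0.000448. The 7 libraries of the 2 groups did not overlap for any of the 174 called genes. Such separation held for 2911 of all genes tested (15.4%). Of the 174, 156 were protein-coding and 8 were pseudogenes, and 10 genes, 7 of them protein-coding, lay on the mitochondrial chromosome.

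**Figure D1:**
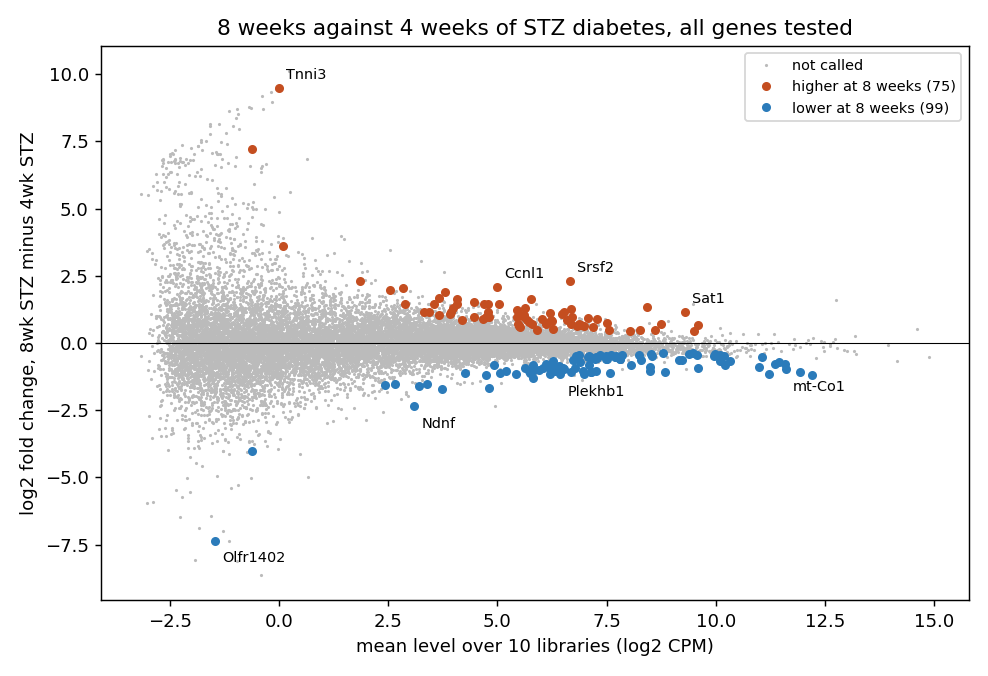
Each point is 1 of 18957 genes, with its mean level over the libraries on the x axis (log2 CPM) and the log2 fold change of 8wk STZ over 4wk STZ on the y axis; coloured points are the 75 genes that rose and the 99 that fell. The genes not called are centred near 0 and fan out at low levels, where Tnni3 and Olfr1402 lie farthest from 0 among the called.

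The count rested on single libraries. Without 4wk STZ 1, 2 and 3 in turn, 118, 41 and 13 genes were called, of which 83, 34 and 13 were among the 174. Without 8wk STZ 1, 2, 3 and 4 in turn, 52, 45, 34 and 14 were called, 50, 41, 32 and 14 of them among the 174. Each Control library left out gave 105 to 118 calls, 97 to 109 of them among the 174. All 174 genes kept their direction in all 10 of these fits. The lack of overlap between the 2 groups for these genes all but fixed that in advance, so it adds no support. Only 9 were called in every one: Rgl2, Sat1, Srsf2, Pou2f2, Prpf38b, Clk4 and Tcirg1, which rose, and Plekhb1 and Atp1b2, which fell. The balance of directions also moved with the scaling: 43.1% of called genes were higher with TMM scaling (trimmed mean of M values, used throughout), 70.8% of 168 with library totals alone and 31.2% of 218 with upper-quartile scaling. With only the 7 diabetic libraries in the fit, 63 of 100 called genes were higher.

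**Figure D2:**
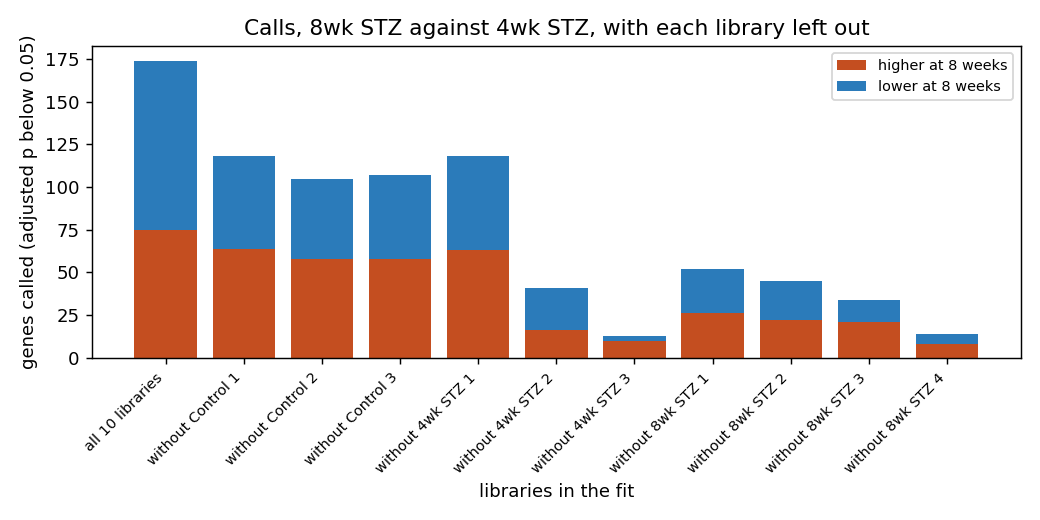
Bars give the number of genes called between 8wk STZ and 4wk STZ with all libraries and with each named library left out, split into higher and lower at 8 weeks. The lowest count, 13, came without 4wk STZ 3, and 14 genes were called without 8wk STZ 4.

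The largest rises among genes above a mean of 2 log2 CPM included regulators of pre-mRNA splicing. In splicing, SR proteins and hnRNPs bind nascent transcripts and set which exons are joined, and the CLK kinases phosphorylate SR proteins. Srsf2 encodes an SR protein that binds exonic enhancers. It stood at 48.4, 29.0 and 42.9 CPM at 4 weeks and 149, 244, 214 and 178 CPM at 8 weeks, so that the lowest library at 8 weeks was over 3 times the highest at 4 weeks. Its mean went from 40.1 ± 10.0 to 196 ± 41.2 CPM (log2 fold change of 2.29 with an SE of 0.209; adjusted p = 0.00216). Clk4, an SR protein kinase, stood at 20.7, 21.4 and 13.6 CPM at 4 weeks and 44.9, 54.0, 56.4 and 47.5 CPM at 8 weeks, with 4wk STZ 2 the highest of its group and still below all 4 later libraries (log2 fold change of 1.45 with an SE of 0.187; adjusted p = 0.0164). Ccnl1 encodes cyclin L1 of the nuclear speckles. Its levels were 17.4, 9.20 and 11.9 CPM at 4 weeks and 40.8, 68.2, 57.7 and 53 CPM at 8 weeks (log2 fold change of 2.09 with an SE of 0.279; adjusted p = 0.0166). Hnrnpdl, an hnRNP that also shuttles to the cytoplasm, went from 35.0 ± 5.499 to 69.0 ± 15.3 CPM (log2 fold change of 0.98 with an SE of 0.191; adjusted p = 0.0439).

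Of 40 listed SR, hnRNP and related splicing regulators, all tested, these 4 rose and none fell, against 0.396% of all genes for a rise. The list's median log2 fold change was 0.18, beside -0.000448 for all genes, and 26 of the 40 were above 0. Outside the list, further genes of RNA processing rose: Rsrp1, an arginine/serine-rich protein, at 264, 158 and 161 CPM at 4 weeks and 416, 516, 512 and 529 CPM at 8 weeks (log2 fold change of 1.34 with an SE of 0.253; adjusted p = 0.0396), and Arglu1, a splicing modulator, from 122 ± 12.6 to 227 ± 23.9 CPM (log2 fold change of 0.90 with an SE of 0.108; adjusted p = 0.0111). Prpf38b, a pre-mRNA processing factor, is added here after its values were seen, for its place among the 9 genes called in every fit. It stood at 29.4, 34.5 and 29.9 CPM at 4 weeks and 72.6, 93.1, 70.6 and 75.5 CPM at 8 weeks (log2 fold change of 1.32 with an SE of 0.135; adjusted p = 0.00343). Its 8-week libraries were all above the highest earlier one. Chosen the same way, Smg5 of nonsense-mediated decay, Tnrc6a of microRNA silencing and the translation factors Eif4g1 and Eif4a2 rose by 1.07, 0.96, 0.98 and 0.93 on the log2 scale. With 1 library left out at a time, Srsf2, Clk4 and Prpf38b were called in all 10 fits, and the others were called in 0 to 9 of 10, with a highest adjusted p from 0.0601 (Arglu1, without 4wk STZ 3) to 0.154 (Hnrnpdl, without 4wk STZ 3); leaving out 4wk STZ 3 gave those highest values. Exons of Mettl23, on the opposite strand, cover 15.6% of the exonic length of Srsf2, and the kit marks no strand. For Mettl23 itself the log2 fold change stood at -0.18, with an adjusted p of 0.674.

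The 250 bases before the annotated starts of 3 of these rising genes are shown because they were among the 9 called in every fit. The bases are on GRCm38, from RefSeq (assembly GRCm38.p6), 5′ to 3′ on the gene's strand, with capitals for any match to 5 motifs searched on both strands: CRE (TGACGTCA), AP-1 (TGANTCA), heat shock element core (GAANNTTC), interferon-stimulated response element core (TTTCNNTTT) and E-box (CACGTG). The windows are chr17:33929644-33929893 (plus strand) for Rgl2, chr11:116853095-116853344 (minus strand) for Srsf2 and chr11:51262864-51263113 (plus strand) for Clk4.
Rgl2: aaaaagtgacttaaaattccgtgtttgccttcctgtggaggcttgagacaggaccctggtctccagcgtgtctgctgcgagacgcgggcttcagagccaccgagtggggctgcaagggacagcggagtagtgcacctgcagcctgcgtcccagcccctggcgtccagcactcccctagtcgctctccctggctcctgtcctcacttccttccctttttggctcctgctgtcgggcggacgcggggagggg
Srsf2: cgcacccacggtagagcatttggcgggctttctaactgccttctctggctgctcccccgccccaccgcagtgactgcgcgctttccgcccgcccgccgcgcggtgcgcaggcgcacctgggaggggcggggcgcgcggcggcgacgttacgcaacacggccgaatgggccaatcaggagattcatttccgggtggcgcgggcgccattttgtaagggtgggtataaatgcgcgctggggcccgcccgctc
Clk4: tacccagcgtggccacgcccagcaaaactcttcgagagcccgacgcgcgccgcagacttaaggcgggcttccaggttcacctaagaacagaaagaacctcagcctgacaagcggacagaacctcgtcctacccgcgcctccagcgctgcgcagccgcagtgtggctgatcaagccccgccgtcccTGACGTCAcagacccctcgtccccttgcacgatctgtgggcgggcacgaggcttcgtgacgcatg
The window of Clk4 held 1 CRE, a motif present in such a window of 1.77% of 27025 genes, any window of a gene counted, and those of Rgl2 and Srsf2 held none of the 5. Of the 9 most-raised genes found in the promoter table, 2 held a CRE and 1 an interferon-stimulated response element core (10.8% of genes). A match is a stretch of letters and not a measured site.

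The other named rises included signalling and transport genes. Rgl2, an exchange factor that loads Ral GTPases, and Sat1 shared the smallest adjusted p. Rgl2 stood at 34.6, 25.9 and 27.6 CPM at 4 weeks and 84.3, 88.2, 102 and 94.8 CPM at 8 weeks, with both groups tight (log2 fold change of 1.65 with an SE of 0.131; adjusted p = 0.000978), and its Control libraries stood at 30.8, 31.8 and 29.1 CPM. Sat1 encodes the acetyltransferase that starts polyamine breakdown. Added after its values were seen, it went from 428 ± 46.0 to 960.5 ± 55.8 CPM (log2 fold change of 1.16 with an SE of 0.0941; adjusted p = 0.000978). Pou2f2, the lymphoid and myeloid transcription factor Oct-2, stood at 71.9, 63.2 and 58.2 CPM at 4 weeks and 132, 134, 148 and 127 CPM at 8 weeks (log2 fold change of 1.07 with an SE of 0.108; adjusted p = 0.00343). Tcirg1 encodes a membrane subunit of the proton pump of lysosomes. It went from 136 ± 8.37 to 228 ± 10.7 CPM (log2 fold change of 0.74 with an SE of 0.0861; adjusted p = 0.00715), and was likewise added after its values were seen. Slc25a37, or mitoferrin 1, imports iron into mitochondria and rose from 12.4 ± 1.82 to 36.0 ± 4.11 CPM (log2 fold change of 1.54 with an SE of 0.222; adjusted p = 0.018). Plekhg2, which switches on small GTPases of the actin skeleton, went up from 7.07 ± 1.54 to 22.8 ± 3.35 CPM (log2 fold change of 1.69 with an SE of 0.279; adjusted p = 0.0288). Wdfy1, an endosomal adaptor of Toll-like receptor signalling, rose from 15.8 ± 3.98 to 43.6 ± 1.14 CPM (log2 fold change of 1.46 with an SE of 0.197; adjusted p = 0.0166).

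Of 22 listed cytokines and chemokines, 20 were tested, 2 rose and none fell, beside 0.396% of all genes for a rise. Both encode chemokines: Ccl2, which recruits monocytes, stood at 12.8, 18.8 and 12.6 CPM at 4 weeks and 41.2, 32.9, 36.6 and 48.7 CPM at 8 weeks (log2 fold change of 1.43 with an SE of 0.273; adjusted p = 0.0405), and Ccl3 went from 56.2 ± 7.75 to 91.4 ± 6.66 CPM (log2 fold change of 0.70 with an SE of 0.134; adjusted p = 0.0405). The list's median log2 fold change was 0.20. All 4 later Ccl2 libraries were above the highest earlier one, 4wk STZ 2. Single members rose in 2 other lists: the autophagy gene Atg16l1, whose product helps attach LC3 to membranes, was the 1 called of 24 (log2 fold change of 0.98 with an SE of 0.185; adjusted p = 0.0398), and Arpc1b, a subunit of the actin-nucleating Arp2/3 complex, was the 1 raised of 25 integrin and actin genes (log2 fold change of 0.69 with an SE of 0.115; adjusted p = 0.03). Exons of Pdap1 overlap 18.2% of the exonic length of Arpc1b. When libraries were left out singly, Rgl2, Sat1, Pou2f2 and Tcirg1 were called in all 10 fits, and the others were called in 1 to 8 of 10, with a highest adjusted p from 0.0526 (Wdfy1, without 8wk STZ 4) to 0.151 (Ccl2, without 4wk STZ 3); leaving out 4wk STZ 3, 8wk STZ 4 and 8wk STZ 3 gave those highest values.

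**Figure D3:**
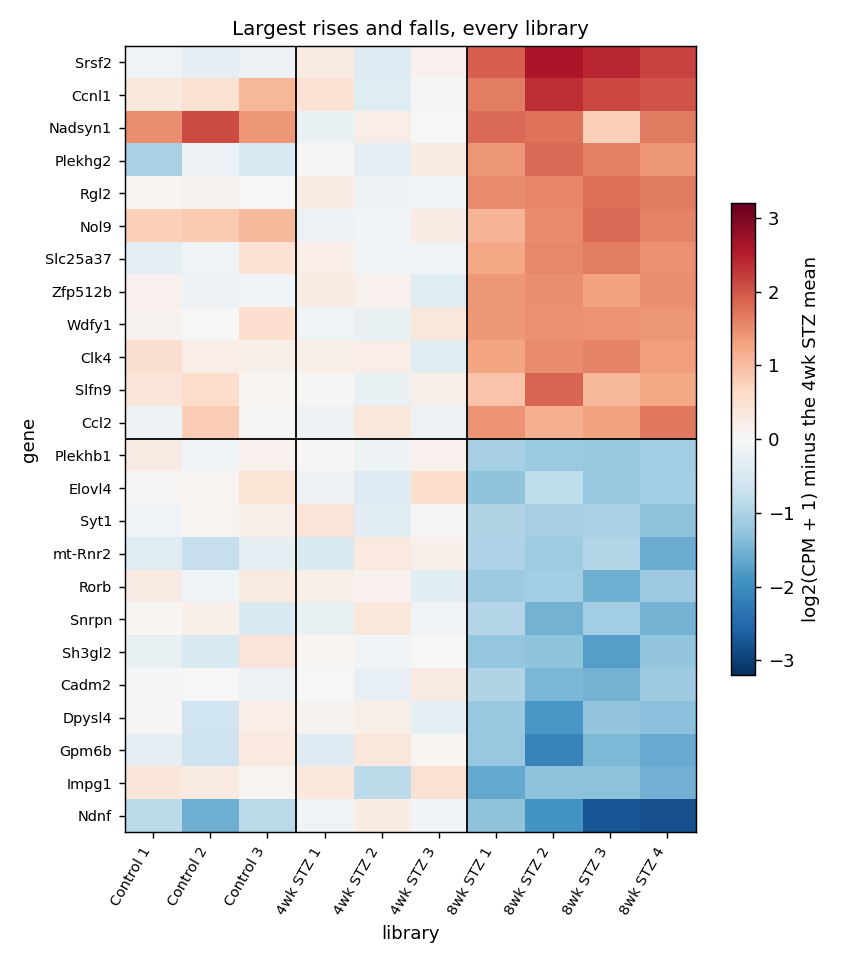
Colours give each library's log2(CPM + 1) minus the mean of the 3 libraries at 4 weeks for the 12 largest rises and 12 largest falls among called genes above 2 log2 CPM; columns are the 10 libraries by group. Each row is a gene. All 4 columns at 8 weeks separate from all 3 at 4 weeks in every row, which was a condition for being shown. Several rows, such as Nadsyn1 and Ndnf, also move between Control and 4 weeks.

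Genes of the mitochondrial chromosome were among the falls. That chromosome encodes 13 protein subunits of respiration and of ATP synthase together with the ribosomal and transfer RNAs needed to make them. All 13 protein genes were tested, 7 fell, none rose and all 13 were below 0, against 0.522% of all genes for a fall. Their median log2 fold change was -0.98, and 12 of 13 separated the 7 libraries, beside 15.4% of all genes. The cytochrome c oxidase subunit mt-Co1 stood at 3460.3, 4317 and 4387 CPM at 4 weeks and 2427, 1895, 2116 and 1757 CPM at 8 weeks (log2 fold change of -0.98 with an SE of 0.128; adjusted p = 0.0164). Each 8-week library was below the lowest at 4 weeks. The complex I subunit mt-Nd1 went from 3073 ± 777 to 1392 ± 228 CPM (log2 fold change of -1.14 with an SE of 0.165; adjusted p = 0.018). Cytochrome b, mt-Cytb, went from 4851 ± 905 to 2314 ± 437 CPM (log2 fold change of -1.07 with an SE of 0.153; adjusted p = 0.018). The remaining 4 called, mt-Co3, mt-Atp6, mt-Co2 and mt-Nd4, had log2 fold changes of -1.03, -1.05, -0.94 and -0.94. The 6 not called ran from -1.28 (mt-Nd3, adjusted p = 0.050003) to -0.69 (mt-Nd5, adjusted p = 0.0688).

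The mitochondrial ribosomal RNAs fell as well: mt-Rnr2, the 16S rRNA, stood at 4797, 8342 and 7507 CPM at 4 weeks and 3389, 3059, 3473 and 2244 CPM at 8 weeks (log2 fold change of -1.18 with an SE of 0.199; adjusted p = 0.0312), and mt-Rnr1, the 12S rRNA, went from 638 ± 153 to 306 ± 58.5 CPM (log2 fold change of -1.06 with an SE of 0.201; adjusted p = 0.0405). Reads on the whole mitochondrial chromosome made up 1.84, 2.52 and 2.72% of all reads at 4 weeks and 1.35, 1.09, 1.22 and 0.889% at 8 weeks. In Control they made up 2.16, 1.89 and 2.22%. Of the 8 called pseudogenes, 6 carry copies of mitochondrial sequence in the nuclear chromosomes 1 and 2 and fell with it, taking 0.0702 to 0.0803% of reads at 4 weeks and 0.0294 to 0.0471% at 8 weeks. How reads that map to several places were counted is not given in the sources used here, so these cannot be separated from the mitochondrial genes. Rod reads were lower in the same 4 libraries, and their part in the mitochondrial falls was not tested. Across the 10 fits that leave out 1 library, these genes were called in 3 to 9 of 10, with a highest adjusted p from 0.0801 (mt-Co1, without 4wk STZ 3) to 0.122 (mt-Rnr1, without 4wk STZ 2); leaving out 4wk STZ 3 and 4wk STZ 2 gave those highest values.

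Nuclear genes of mitochondria and of glucose use are set beside these. Over all genes tested, 0.522% fell and 0.396% rose. Among 78 tested nuclear genes of oxidative phosphorylation, 1 fell, Sdha of complex II (log2 fold change of -0.42 with an SE of 0.0756; adjusted p = 0.0324), none rose, and the median was 0.03 (-0.03 with upper-quartile scaling). Of 76 tested mitochondrial ribosomal protein genes none was called, 66 were above 0 and the median was 0.25. Glycolysis and glucose transport had 2 of 26 genes fall, none rise, 23 below 0 and a median of -0.28, beside 0.522% of all genes for a fall. These were Hk1, the hexokinase that starts glycolysis, at 124, 118 and 119 CPM at 4 weeks and 81.9, 83.0, 68.2 and 80.7 CPM at 8 weeks (log2 fold change of -0.62 with an SE of 0.0979; adjusted p = 0.0237), and Eno1, enolase, from 1268 ± 47.8 to 903 ± 103 CPM (log2 fold change of -0.49 with an SE of 0.0961; adjusted p = 0.0444). Hk1 is also expressed in photoreceptors and neurons, whose transcripts were lower in the same libraries, and the part of those cells in these values was not tested. On leaving out single libraries, these genes were called in 0 to 3 of 10, with a highest adjusted p from 0.0926 (Hk1, without 4wk STZ 3) to 0.132 (Eno1, without 4wk STZ 2); leaving out 4wk STZ 2 and 4wk STZ 3 gave those highest values.

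**Figure D4:**
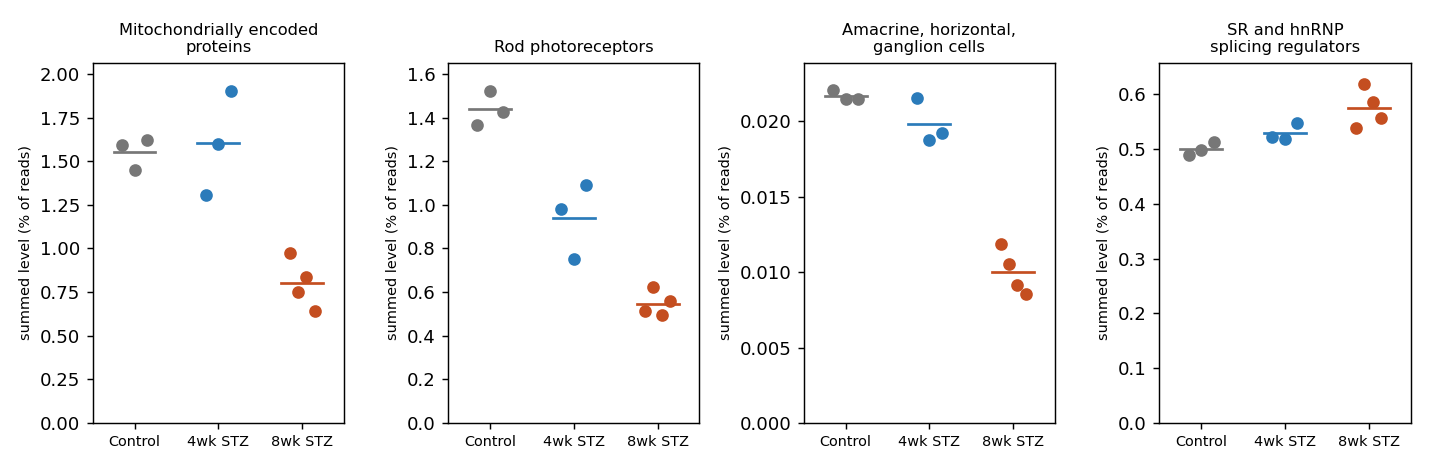
Points are libraries and the y axis is the share of all counted reads, in percent, for the summed members of each set named above the panel; short lines are group means. Reads on mitochondrially encoded proteins were 1.31 to 1.90% at 4 weeks and 0.64 to 0.973% at 8 weeks. Those on the rod list, Gnb1 included, were 0.752 to 1.09% and 0.494 to 0.622%.

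Transcripts of retinal neurons were also among the falls in these sorted cells. Of 19 listed rod genes, all tested, 7 fell, none rose and all 19 were below 0, with a median of -0.78, beside 0.522% of all genes for a fall and an all-gene median of -0.000448. Gnat1 (rod transducin) stood at 2118, 2037 and 1587 CPM in Control, 1266, 914 and 1239 CPM at 4 weeks and 606, 738, 543 and 724 CPM at 8 weeks (log2 fold change of -0.80 with an SE of 0.151; adjusted p = 0.0396). Every library at 8 weeks was below those at 4 weeks. Rom1, a disc membrane protein, went from 356 ± 55.5 to 192 ± 22.3 CPM (log2 fold change of -0.89 with an SE of 0.129; adjusted p = 0.0181). The phosphodiesterase subunits Pde6a and Pde6g had log2 fold changes of -1.11 and -0.81, the channel subunit Cngb1 of -0.80, and Gnb1, a G protein beta subunit found in many cell types, of -0.78. Summed, the rod list took 1.37, 1.52 and 1.43% of reads in Control, 0.981, 0.752 and 1.09% at 4 weeks and 0.514, 0.622, 0.494 and 0.558% at 8 weeks. Without Gnb1, those shares were 0.965 to 1.07% in Control, 0.471 to 0.677% at 4 weeks and 0.295 to 0.411% at 8 weeks. In the fits with 1 library removed, these genes were called in 1 to 6 of 10, with a highest adjusted p from 0.0926 (Rom1, without 4wk STZ 3) to 0.153 (Pde6g, without 4wk STZ 3); leaving out 4wk STZ 3 gave those highest values.

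Of 22 genes listed for amacrine, horizontal and ganglion cells, 20 were tested and 2 fell: Snap25, a core fusion protein of synapses (log2 fold change of -0.93 with an SE of 0.127; adjusted p = 0.0166), and Syt1, the calcium sensor of synaptic vesicles, at 44.96, 25.6 and 32.1 CPM at 4 weeks and 16.5, 15.5, 15.9 and 12.8 CPM at 8 weeks (log2 fold change of -1.18 with an SE of 0.193; adjusted p = 0.0282). The share called was again beside 0.522% of all genes, and the median was -0.96. Bipolar cell genes (12 tested, none called) had a median of -1.04, and genes of Müller glia and astrocytes (17 tested, none called) a median of -0.62. As shares of reads, the amacrine, horizontal and ganglion list took 0.0188 to 0.0216% at 4 weeks and 0.00853 to 0.0118% at 8 weeks, and the bipolar list 0.0066 to 0.00969% and 0.00234 to 0.00496%. The Müller list without Apoe, which macrophages also express, took 0.124 to 0.146% and 0.0762 to 0.111%. Each of these 3 shares was lower in all 4 later libraries. Of 10 tested cone genes none was called, 4 were above 0, the median was -0.42, and they took 0.0197 to 0.026% of reads at 4 weeks and 0.0175 to 0.0279% at 8 weeks, which overlap. Of 9 tested pericyte, smooth muscle and fibroblast genes, 5 were above 0, the median was 0.22, and 1 fell: Vtn, vitronectin (log2 fold change of -0.96 with an SE of 0.146; adjusted p = 0.0209).

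The 12 largest falls included further genes known from neurons, glia or photoreceptors. Impg1, a proteoglycan of the matrix around photoreceptors, stood at 21.0, 8.72 and 23.3 CPM at 4 weeks and 4.58, 5.97, 5.95 and 4.95 CPM at 8 weeks, where 4wk STZ 2 was far below the other 2 of its group (log2 fold change of -1.72 with an SE of 0.299; adjusted p = 0.0318). Rorb, a nuclear receptor needed for photoreceptor fate, stood at 80.1, 76.1 and 55.3 CPM at 4 weeks and 30.5, 31.5, 23.1 and 30.4 CPM at 8 weeks (log2 fold change of -1.29 with an SE of 0.169; adjusted p = 0.0166). Plekhb1, a membrane protein abundant in photoreceptors, stood at 110.2, 95.9 and 120.0 CPM at 4 weeks and 51.5, 47.3, 46.4 and 49.9 CPM at 8 weeks, well apart between the groups (log2 fold change of -1.16 with an SE of 0.118; adjusted p = 0.00343). Elovl4, the elongase of very long chain fatty acids in photoreceptors, went from 91.4 ± 34.5 to 40.6 ± 6.37 CPM (log2 fold change of -1.17 with an SE of 0.223; adjusted p = 0.0406). The neuronal genes Sh3gl2 (endophilin A1), Cadm2 (a synaptic adhesion protein), Dpysl4 (a growth cone protein), Gpm6b (a proteolipid of neurons and glia) and Snrpn (an imprinted splicing protein of neurons) had log2 fold changes of -1.54, -1.58, -1.61, -1.67 and -1.52. Exons of Gm38393, on the same strand, cover 27.3% of the exonic length of Snrpn. Atp1b2, a sodium pump subunit of glia and photoreceptors, is added after its values were seen as 1 of the 9 called in every fit (log2 fold change of -1.09 with an SE of 0.119; adjusted p = 0.00557). The part of fewer captured retinal cells or less free retinal RNA in these falls was not tested. Among these falls and those of Snap25 and Syt1, Plekhb1 and Atp1b2 were called in all 10 fits, and the others were called in 0 to 9 of 10, with a highest adjusted p from 0.0526 (Rorb, without 8wk STZ 4) to 0.161 (Snrpn, without 4wk STZ 2); leaving out 4wk STZ 3, 4wk STZ 2, 8wk STZ 4 and 8wk STZ 3 gave those highest values.

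The windows before 3 of these falling genes are given in the same way, with the same motifs in capitals. They are chr7:100662395-100662644 for Plekhb1, chr19:19111197-19111446 for Rorb and chr10:109010976-109011225 for Syt1, all on the minus strand of GRCm38 (RefSeq), and show 2 photoreceptor genes and a synaptic gene among the largest falls.
Plekhb1: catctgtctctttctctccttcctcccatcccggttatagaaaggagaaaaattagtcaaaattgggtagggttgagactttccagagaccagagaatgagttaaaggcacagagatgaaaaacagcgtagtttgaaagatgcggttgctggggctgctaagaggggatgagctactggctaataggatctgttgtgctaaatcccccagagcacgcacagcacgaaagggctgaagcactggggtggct
Rorb: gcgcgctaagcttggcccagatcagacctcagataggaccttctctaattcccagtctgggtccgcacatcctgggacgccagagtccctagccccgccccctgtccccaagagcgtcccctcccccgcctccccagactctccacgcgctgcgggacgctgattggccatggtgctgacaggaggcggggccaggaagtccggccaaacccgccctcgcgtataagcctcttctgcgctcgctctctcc
Syt1: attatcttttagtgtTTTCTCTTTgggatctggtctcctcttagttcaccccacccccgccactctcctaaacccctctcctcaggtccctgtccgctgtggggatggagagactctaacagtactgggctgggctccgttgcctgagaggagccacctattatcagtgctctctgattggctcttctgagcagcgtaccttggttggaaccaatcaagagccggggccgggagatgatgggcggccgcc
Syt1 held 1 interferon-stimulated response element core, and the printed windows of Plekhb1 and Rorb held none of the 5 motifs. Each of these 3 genes has 2 windows in the table, of which 1 is printed; the other window of Rorb held an AP-1 motif. Of the 9 largest falls found in the promoter table, counting any window of a gene, 2 held a CRE, 1 (Rorb) an AP-1 motif (7.82% of all genes), 1 an E-box (6.86%) and none a heat shock element core (7.73%).

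Smaller falls were measured in genes that are expressed widely, microglia included. The counts of list members below stand beside 0.522% of all genes for a fall and 0.396% for a rise. Msn, moesin, links actin to the membrane and was the 1 lowered of 25 integrin and actin genes, going from 1620.4 ± 139.5 to 1027 ± 98.9 CPM (log2 fold change of -0.66 with an SE of 0.104; adjusted p = 0.0257). Lamp2, a lysosomal membrane protein, was the 1 called of 41 listed lysosomal genes, at 1092, 1100.0 and 1247 CPM at 4 weeks and 822, 936, 769 and 759 CPM at 8 weeks (log2 fold change of -0.48 with an SE of 0.0906; adjusted p = 0.0396), and the median of that list was -0.07 (0.02 with library totals). Tcirg1 of the lysosomal proton pump, given above among the called rises, was not on that list. Named after their values were seen, the leukocyte tetraspanin Cd53 and the GTPase Cdc42, which steers actin, went from 2383 ± 336 to 1649 ± 109 CPM (log2 fold change of -0.53 with an SE of 0.0982; adjusted p = 0.0377) and from 1325 ± 124 to 938 ± 62.5 CPM (log2 fold change of -0.50 with an SE of 0.0859; adjusted p = 0.0318). After removing libraries singly, these falling genes were called in 1 to 5 of 10, with a highest adjusted p from 0.107 (Msn, without 4wk STZ 3) to 0.149 (Lamp2, without 4wk STZ 3). Leaving out 4wk STZ 3 gave those highest values.

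For 96 of the 174 called genes (55.2%), the direction between 4 and 8 weeks was opposite to that of the earlier change from Control to 4 weeks. Of these, 46 rose after an earlier log2 fold change below 0, and 50 fell after one above 0. Both comparisons use the 3 libraries at 4 weeks, with opposite sign, so a high or low value at 4 weeks pushes them apart. Over all genes tested the share was 64.2%, above that of the called genes. For 94 of the 96, the levels at 4 and 8 weeks lay on opposite sides of the Control level (54.0% of the called genes, 32.4% of all tested). Calling selects large changes from 4 to 8 weeks, which cross the Control level more readily, so these 2 shares cannot be compared. The earlier change reached 0.5 log2 units in either direction for 19 of the 96. Between 8wk STZ and Control 449 genes (2.37%) were called, among them 41 of the 96 and all 78 that kept the earlier direction. For the rest of the 96, the side of Control on which the 8-week level lay is a sign alone. No gene was called between 4wk STZ and Control (0% of 18957), where edgeR gave 1849 genes at an unadjusted p below 0.05, limma-voom 0 calls and DESeq2 314. The earlier direction of every gene below therefore falls short of the threshold in edgeR.

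The genes that rose at 8 weeks from their lowest level at 4 weeks were led by Nadsyn1. Nadsyn1, the enzyme that completes NAD synthesis, stood at 6.77, 10.9 and 6.25 CPM in Control, 1.39, 2.24 and 1.80 CPM at 4 weeks and 8.76, 8.38, 3.70 and 7.91 CPM at 8 weeks. All 3 libraries at 4 weeks were below both other groups, and 8wk STZ 3 was the lowest of its group. Its log2 fold change was -2.14 up to 4 weeks and 1.99 from 4 to 8 weeks (SE 0.383, adjusted p = 0.0413). Nol9, a nucleolar kinase of ribosomal RNA processing, stood at 14.2, 14.9 and 17.2 CPM in Control, 6.87, 7.42 and 9.73 CPM at 4 weeks and 17.8, 24.5, 30.5 and 25.7 CPM at 8 weeks (log2 fold change of 1.62 with an SE of 0.223; adjusted p = 0.0166). Nol8, another nucleolar protein, had mean levels of 20.0, 11.8 and 21.5 CPM in Control, at 4 weeks and at 8 weeks (log2 fold change of 0.86 with an SE of 0.174; adjusted p = 0.048). E2f4, a cell cycle repressor of the E2F family, had means of 47.7, 31.3 and 51.5 CPM (log2 fold change of 0.72 with an SE of 0.133; adjusted p = 0.0377), and Fzr1, an activator of the anaphase-promoting complex, of 58.3, 39.8 and 64.8 CPM (log2 fold change of 0.70 with an SE of 0.0973; adjusted p = 0.0166). Ulk3, a kinase of the ULK family, and the zinc finger gene Zfp318 had earlier log2 fold changes of -0.69 and -0.81 and later ones of 1.30 and 1.15. Ccnl1 and Rsrp1, given above, went -0.66 and -0.63 up to 4 weeks. Between 8wk STZ and Control, the log2 fold changes were -0.15 for Nadsyn1, 0.10 for Nol8, 0.11 for E2f4 and 0.15 for Fzr1, none called. That of Ccnl1 was 1.44 and called (adjusted p = 0.0226). Pip4p1, a phosphoinositide phosphatase, went -0.45 and then 0.67, and Apex1 overlaps 19.5% of its exonic length. With 1 library fewer, the 10 rising genes were called in 0 to 8 of 10, with a highest adjusted p from 0.0548 (Nol9, without 4wk STZ 2) to 0.151 (Rsrp1, without 4wk STZ 3); leaving out 4wk STZ 3 and 4wk STZ 2 gave those highest values.

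Genes that fell at 8 weeks from their highest level at 4 weeks were led by Ndnf, a secreted neurotrophic factor of neurons. It stood at 8.74, 4.88 and 8.60 CPM in Control, 14.8, 19.6 and 15.4 CPM at 4 weeks and 6.22, 3.65, 1.63 and 1.49 CPM at 8 weeks, with every 4-week library above both other groups (log2 fold change of -2.35 with an SE of 0.469; adjusted p = 0.048). Rp2, which regulates the small GTPase ARL3 in cilium trafficking, stood at 108, 90.1 and 106 CPM in Control, 142, 171 and 177 CPM at 4 weeks and 108, 116, 82.1 and 94.0 CPM at 8 weeks (log2 fold change of -0.71 with an SE of 0.135; adjusted p = 0.0405). Between 8wk STZ and Control, the log2 fold change of Rp2 was -0.02 and that of Ndnf -1.19, neither called. The mitochondrial rRNAs mt-Rnr2 and mt-Rnr1 had earlier changes of 0.50 and 0.40. Eif3e is a subunit of the translation initiation factor eIF3 and Bzw1 an initiation regulator. Eif3e had means of 178, 223 and 146 CPM in Control, at 4 weeks and at 8 weeks (log2 fold change of -0.61 with an SE of 0.118; adjusted p = 0.0431) and Bzw1 of 219, 277 and 183 CPM (log2 fold change of -0.60 with an SE of 0.117; adjusted p = 0.0425). Nek7, a kinase that licenses the NLRP3 inflammasome, had means of 207, 257 and 179.8 CPM (log2 fold change of -0.52 with an SE of 0.0852; adjusted p = 0.0282). The calcium-binding protein gene Chp1 went 0.34 and then -0.67, and Map4, a microtubule-binding protein, 0.31 and then -0.59. Under the same removals the falling genes named here were called in 0 to 5 of 10, with a highest adjusted p from 0.107 (Nek7, without 4wk STZ 3) to 0.155 (Eif3e, without 4wk STZ 3); leaving out 4wk STZ 3 and 4wk STZ 2 gave those highest values.

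**Figure D5:**
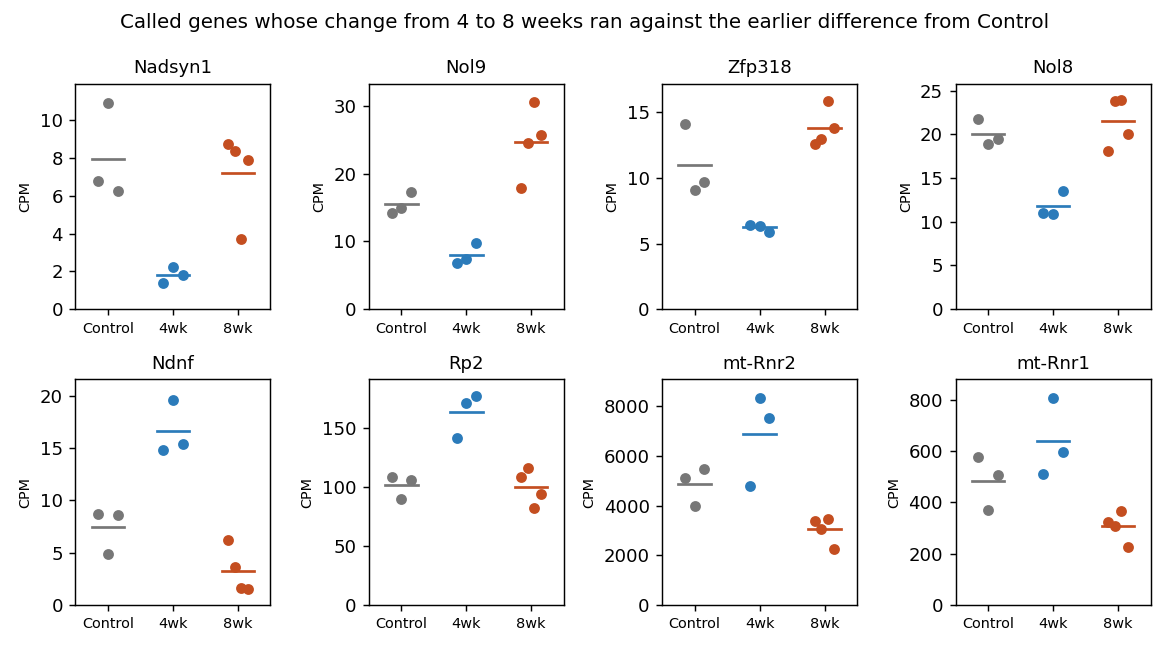
Points are libraries, short lines group means and the y axes CPM, for 4 called genes that rose and 4 that fell after 4 weeks against the direction of the earlier difference from Control. In the upper row the 3 blue points at 4 weeks lie lowest (Nadsyn1 at 1.39 to 2.24 CPM), and in the lower row they lie above all 8-week points.

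The other 78 called genes kept the direction of the earlier change, 29 of them higher and 49 lower. Falls with a large earlier change included genes known from photoreceptors. Prom1, which shapes photoreceptor discs, went -0.71 up to 4 weeks and -0.99 after, and Fam57b, a sphingolipid gene of photoreceptors, -0.72 and -0.93; Rom1 went -0.74 and -0.89, and Gnat1 -0.75 and -0.80. The rises with the largest earlier change were those of Plekhg2 (0.64, then 1.69), Arglu1 (0.43, then 0.90), Abcc5, an exporter of cyclic nucleotides (0.40, then 0.87), Pou2f2 (0.25, then 1.07) and Srsf2 (0.23, then 2.29). Abcc5 stood at 62.6, 51.0 and 61.6 CPM in Control, 85.7, 75.5 and 69.3 CPM at 4 weeks and 127, 165, 115 and 155 CPM at 8 weeks. Prom1, Fam57b and Abcc5 were called in 1 to 5 of 10, with a highest adjusted p from 0.12 (Abcc5, without 4wk STZ 3) to 0.172 (Prom1, without 4wk STZ 3); leaving out 4wk STZ 3 and 8wk STZ 3 gave those highest values.

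No member was called in 38 of the 49 lists, among them several that define microglial states. The 27 homeostatic microglial genes had a median of -0.06 (0.02 with library totals) and the 24 disease-associated genes one of 0.07 (-0.02 at the lowest over the alternatives). Type I interferon response genes lay nearly all above 0 (27 of 28) with a median of 0.62, and 12 of 28 separated the libraries, beside 15.4% of all genes. Bst2, which tethers budding virus, went from 155 to 249 CPM (log2 fold change 0.68, adjusted p = 0.153), and Ifitm3, which blocks viral entry, from 161 to 229 CPM (log2 fold change 0.51, adjusted p = 0.449). Named after their values were seen, those closest to the threshold were Mx1, from 4.34 to 27.4 CPM (log2 fold change 2.65, adjusted p = 0.111), and Mx2, from 3.62 to 10.2 CPM (log2 fold change 1.48, adjusted p = 0.131), both dynamin-like antiviral proteins. Across alternatives that list's median ran from 0.43 to 0.74. As a median over genes of log2(CPM + 1) minus the mean of the 3 earlier libraries, the list stood at 0.22, 0.25 and -0.36 at 4 weeks, 0.36, 1.15, 0.21 and 0.58 at 8 weeks and -0.25, 0.75 and -0.17 in Control, so that the groups overlapped. Cell cycle genes were above 0 for 34 of 40 with a median of 0.66 (0.44 to 0.74). The replication genes Mcm3 and Rrm1 went from 71.7 to 77.6 CPM (log2 fold change 0.11, adjusted p = 0.847) and from 57.1 to 46.6 CPM (log2 fold change -0.29, adjusted p = 0.326). Chosen after their values were seen, Ccnb2, cyclin B2, went from 3.36 to 12.8 CPM (log2 fold change 1.92, adjusted p = 0.131), and Mki67, a proliferation marker, went from 1.81 to 9.26 CPM (log2 fold change 2.36, adjusted p = 0.294). Cytosolic ribosomal protein genes were below 0 for 69 of 78 with a median of -0.28. The translation genes Rpl3 and Rpl13 of that list went from 2159.7 to 1529 CPM (log2 fold change -0.50, adjusted p = 0.0611) and from 2111 to 1774 CPM (log2 fold change -0.25, adjusted p = 0.408). The MHC class I list had a median of 0.27, and 7 of its 14 genes separated the libraries.

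Another 6 called genes had means below 2 log2 CPM and stand outside the groups above; they are given as reads summed over libraries and were named after their values were seen. Tnni3, cardiac troponin I, had 0 reads at 4 weeks, 397 at 8 weeks and 108 in Control, at least 80.8-fold higher at 8 weeks when the group's floor is set at 3 reads in all. Olfr1402, an olfactory receptor gene, had 52 reads at 4 weeks, 0 at 8 weeks and 94 in Control, at least 28.4-fold lower at the same floor. Syne4, a nuclear envelope protein, had 1 read, 336 and 4, a ratio of 205 with a 95% counting interval from 36.6 to 8125. Kifc5b, a kinesin, had 14 reads, 298 and 213 (ratio 12.99, 7.62 to 24.1), and Sap30l, a corepressor subunit, 166, 1351 and 338 (ratio 4.97, 4.23 to 5.87). Gm48700 had 190 reads, 22 and 42 (ratio 0.0707, 0.0433 to 0.110). These intervals are exact, cover counting error only and hold no spread between animals.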

How the data were processed

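RNA-seq was made from sorted retinal microglia of 10 mice. The deposited table holds raw read counts per gene, per the file headers, as whole numbers. The submitters' processing notes name STAR, featureCounts, Salmon, edgeR and limma and the build GRCm38; which made the table, the annotation release, strand setting and handling of multi-mapping reads are not stated there. Of 55774 entries, 287 repeated an identifier and were dropped, and 19211 of 55487 genes had no read. Positions came from GENCODE vM21, which held 99.8% of the genes tested. Of the 173 called genes in it, 25 shared at least 5% of their exonic length with another gene, and only some of these overlaps are given above.

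Groups came from the labels. Each library is a separate animal. Counts were filtered with edgeR's filterByExpr, scaled by TMM and modelled in edgeR 4.0.16 under R 4.3.3 (robust quasi-likelihood, all 10 libraries with a mean for each of the 3 groups, leaving 7 residual degrees of freedom), with Benjamini-Hochberg adjustment over 18957 genes. CPM values use the same scaling. The script was tested on simulated data. Named genes, above a mean of 2 log2 CPM, were the 12 largest called changes each way, the 10 each way with the largest earlier change of opposite sign, the 5 each way of the same sign, and called list members (up to 4 a list; for a list with none, the 2 with the highest mean CPM). Changes named by size also had to separate the libraries of the 2 times, as all 174 called genes did. Predicted genes (symbols Gm with digits, or ending in Rik), pseudogenes, Xist and Y-linked genes were left out of them. The members, lists and tests were chosen with earlier results of these data known. Alternatives were DESeq2 1.42.0, limma-voom 3.58.1, other scalings and filters, thinned counts, the 7 diabetic libraries alone, a replicate block, and each library left out. The authors' own comparison table was not used, and some items are not reported here. No pair of libraries agreed within sampling noise.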

Additional observations from a re-analysis of the deposited data

Results flagged for a closer look

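Among the named genes, 136 groups of 4 libraries at 8 weeks were checked for 1 library apart from the other 3, and 9 held one, beside the 5% of groups that chance marks. In 8wk STZ 3, the lowest library was that of Rorb (23.1 CPM, the others 30.4 to 31.5), of Hk1 (68.2 CPM, the others 80.7 to 83.0), of Sh3gl2 (3.48 CPM, the others 5.23 to 5.51) and of Nadsyn1 (3.70 CPM, the others 7.91 to 8.76). The same library was the highest for Rgr, an opsin of the pigment epithelium and Müller glia, at 28.3 CPM where the others stood at 0.336 to 0.746, and for the haemoglobin gene Hbb-bt, at 0.0398 CPM where the others had none. The Hbb-bt value rests on very few reads, and any read in 1 library is marked when the others have none. In 8wk STZ 1, Rsrp1 was lowest at 416 CPM (512 to 529 in the others) and Glul, glutamine synthetase of Müller glia and other cells, highest at 578 CPM (516 to 523). In 8wk STZ 4, Nr4a1, an immediate early gene, was highest at 15.4 CPM (6.13 to 6.41). Rgr, Hbb-bt, Glul and Nr4a1 were not called between the times.

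The effect of STZ against the shared Control libraries differed between 4 and 8 weeks for 174 genes (edgeR's test of the difference), which is the comparison of the report, since the Control mean cancels from it.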

How the results depend on the processing

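All 174 called genes kept their direction under every alternative that tested them (172 under the filter of 1 CPM), and the number of calls did not hold. It was 1004 with DESeq2, of which 171 were among the 174, 294 with a filter of at least 1 CPM in 3 libraries, 277 with no filter and 100 with only the 7 diabetic libraries. It was 168 with library totals, 218 with upper-quartile scaling, 199 with limma-voom and 184 with counts thinned to 1 depth. Called genes with a direction opposite to the earlier change numbered 694, 177, 155 and 61 under the first 4 of these. Leaving out 1 library gave 13 to 118 calls and 5 to 91 with the opposite direction. Without both Control 3 and 4wk STZ 3, chosen after seeing the data, 6 calls remained, 3 with the opposite direction. Library totals moved the median of all genes by 0.085 and upper-quartile scaling by -0.063 on the log2 scale. Of the values of single genes over the alternatives, 574 lost the threshold, 27 gained it and 2114 stayed on their side. None called in either fit changed direction, and a change of sign in a gene called in neither was counted among the 2114. Of 220 list medians, all from the 11 lists with a called member, 8 moved by more than the spread between libraries. Among the other 38 lists, the pigment epithelium median went from 1.49 to -0.52 without 8wk STZ 3. Over all 49 lists, 13 medians changed sign between the scalings.

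With the replicate number as a block, edgeR called 0 genes, 0 with the opposite direction, at a smallest adjusted p of 0.0742 and 1965 genes at an unadjusted p below 0.05. Number 4 occurs only at 8 weeks, so the block takes 8wk STZ 4 out of the comparison. It also leaves fewer residual degrees of freedom. Without 8wk STZ 4 and with no block, 14 genes were called. The numbers are not given as a pairing in the labels. Deviations from the group means correlated at -0.0297 to 0.0348 between same-numbered libraries and at -0.0393 to 0.0394 between differently numbered ones. Whether same-numbered libraries share a batch that touches part of the genes was not tested.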

Other observations

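Called genes outside the lists were named after their values were seen, and are given singly, as no group. The log2 fold changes were 0.49 for Il10ra, a subunit of the interleukin 10 receptor (adjusted p = 0.035), 0.50 for Icosl, a ligand of the T cell receptor ICOS (adjusted p = 0.0444), 0.64 for Map3k14, the kinase of the alternative NF-kB pathway (adjusted p = 0.0288), and 0.61 for Tnip2, a partner of the inhibitor A20 (adjusted p = 0.0498). The chromatin genes Dnmt3a, a DNA methyltransferase, and Brd2, a reader of acetylated histones, went from 65.6 ± 5.85 to 93.1 ± 5.73 CPM and from 93.8 ± 10.6 to 153 ± 5.56 CPM.

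Some smaller falls, named the same way, are also given singly. Log2 fold changes were -0.43 for Arf4 and -0.47 for Rab18, small GTPases, -0.45 for Gdi2, which recycles Rab proteins, -0.63 for Ssr1 and -0.46 for Emc1, which help proteins enter the membrane, and -0.46 for Vcp, the ATPase that extracts them. Exons of another gene on the opposite strand cover 29.3% of the exonic length of Emc1, 14.6% of Arf4, 11.2% of Gdi2 and 7.26% of Vcp. With single libraries left out, these 12 genes were called in 0 to 4 of 10, with a highest adjusted p from 0.105 (Map3k14, without 4wk STZ 3) to 0.154 (Ssr1, without 4wk STZ 3); leaving out 4wk STZ 3, 8wk STZ 3 and 4wk STZ 2 gave those highest values. Apoe, the lipid carrier and a gene of the disease-associated list, stood at 4118, 5061 and 2431 CPM at 4 weeks and 14667, 7754, 5178 and 19382 CPM at 8 weeks, and did not pass the test (log2 fold change 1.60, adjusted p = 0.14).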
